A study of Drosophila melanogaster with 4 samples.

Results

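The centromere-side stretch of the Drosophila melanogaster X chromosome outside its proximal end carried many narrow clusters of histone H3 lysine 9 trimethylation (H3K9me3) in wild-type larvae. The stretch runs from base 10000001 to base 20422827 of X on FlyBase release 5, which is 10.4 Mb, and stops 2 Mb short of the centromere-side end of the assembled arm. A cluster is an interval of significant enrichment as called by the authors, and it was counted as a member if its midpoint lay in the stretch. The members were 303 of the 3258 clusters of ChIP replicate 1, 352 of the 3287 clusters of ChIP replicate 2 and 523 of the 4060 clusters of the combined list, which the authors made for the replicate set. Members were taken by position and not by score, but the choice was made with earlier results of these data known.

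H3K9me3 is the histone mark of constitutive heterochromatin. In flies it is placed by methyltransferases such as Su(var)3-9 and the SETDB1 homologue Eggless, and it is bound by the chromodomain protein HP1a, which compacts chromatin and limits transcription. It is dense around centromeres, on chromosome 4 and on the Y chromosome, and on the gene-rich arms it is found at transposon insertions and at tandem repeats. The X chromosome of flies also stands apart in that males carry a single copy, whose transcription the MSL dosage compensation complex raises, and in that short tandem satellite arrays are scattered along its gene-rich part.

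The study assayed nuclei of third-instar larvae of the Oregon-R strain with a wild-type genotype, crosslinked with formaldehyde. There were 2 libraries immunoprecipitated with an H3K9me3 antibody that the labels call a new lot, and 2 input libraries as their background, all from the same strain and stage. The labels do not give the sex of the larvae or say whether the replicates came from separate preparations, so the SD over n = 2 replicates may be technical. Whole larvae hold many cell types, and a mark present in few cells cannot be told apart from a weak mark in all of them. No list of an input library was used, and without read totals the depth behind the clusters is unknown.

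Clusters covered 7.72% of the stretch in replicate 1 and 9.75% in replicate 2, which is 8.74% ± 1.43 (SD, n = 2). This amounts to 805 kb and 1016 kb. The combined list covered 14.2%, or 1479 kb. The proximal 2 Mb of X, the next part of the arm towards the centromere, had 18.1% of its bases under clusters in replicate 1 and 22.7% in replicate 2. The stretch was thus covered less than the proximal window in each list. The density of members per Mb was 29.1 clusters in replicate 1, 33.8 clusters in replicate 2 and 50.2 clusters in the combined list.

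Most members were narrow. The median width was 2055 bp in replicate 1 and 2151.5 bp in replicate 2, and the middle 50 percent of members measured 1647 bp to 2770 bp and 1774 bp to 3022.5 bp. Members of 5 kb or more numbered 22 in replicate 1, where they held 22.9% of the cluster bases, and 31 in replicate 2, where they held 27.5%. Members of 10 kb or more numbered 2 in replicate 1 and 10 in replicate 2, and the combined list had 15.

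Each cluster carries a deposited score, the authors' own value of unstated scale, used here to describe clusters within a list. The median score was 0.749 in replicate 1 and 0.746 in replicate 2, and the middle 50 percent of members lay between 0.628 and 0.929 in replicate 1 and between 0.6002 and 0.955 in replicate 2. Scores of 2 or more were held by 7 of 303 and 9 of 352 members. In the first 10 Mb of X the counts were 9 of 234 and 13 of 285 clusters. On the pooled autosomal stretches, described further on, they were 19 of 400 and 27 of 425. Over all sequences this share was not computed, and the median score there was 1.75 in replicate 1 and 1.43 in replicate 2. Wider members scored higher: across the members the Spearman correlation of width and score was 0.720 in replicate 1 and 0.744 in replicate 2. It is a description over clusters of 1 library each, which are not independent replicates. On the autosomal stretches described further on, the same correlation lay between 0.505 and 0.626 in replicate 1 and between 0.557 and 0.671 in replicate 2. It was 0.644 and 0.666 in the first 10 Mb of X and 0.761 and 0.720 in the proximal window, which lay above the stretch in replicate 1 and below it in replicate 2.

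**Figure D1:**
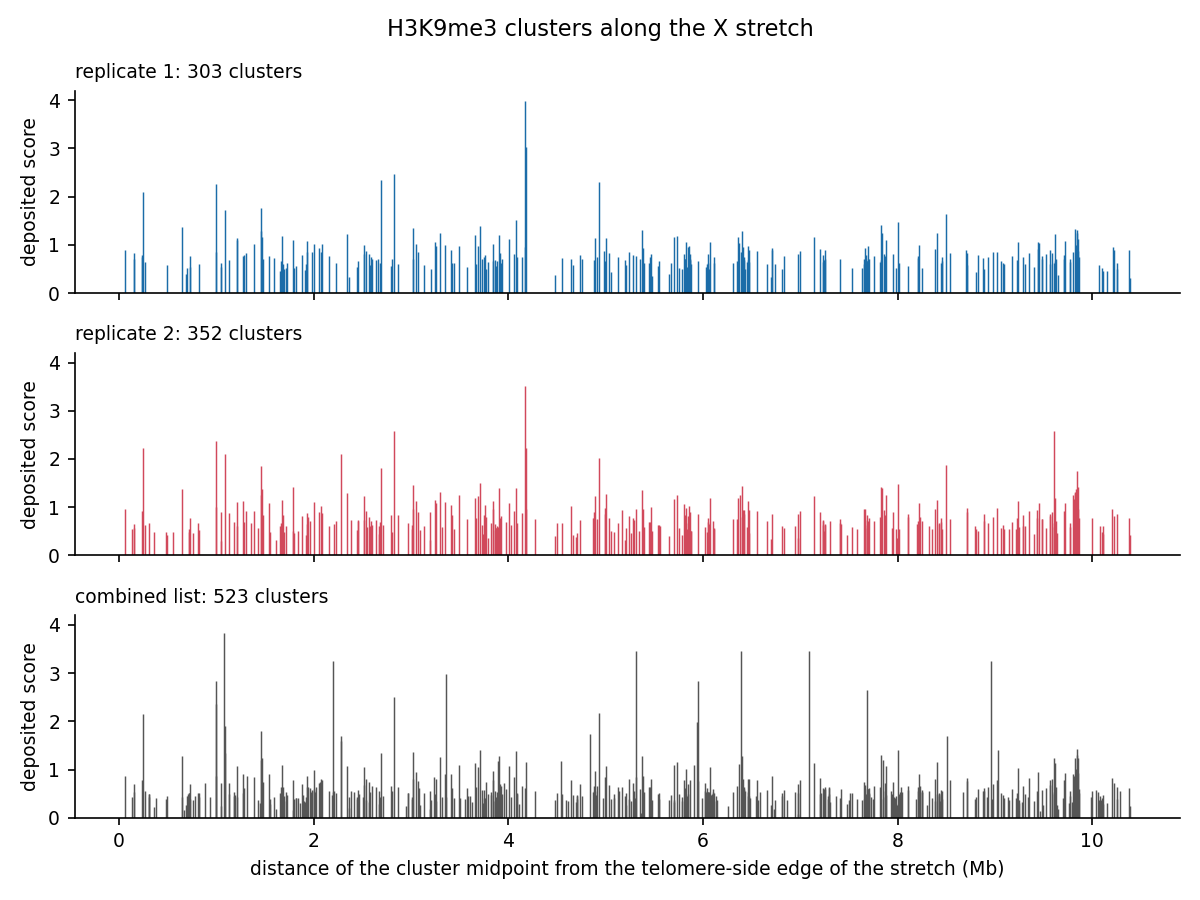
Each vertical line is 1 cluster, placed at the distance of its midpoint from the telomere-side edge of the stretch (horizontal axis, Mb) and drawn to its deposited score (vertical axis), in 1 panel for each list. The replicates share their tall lines near 4.2 Mb, where the scores reached 3.98 and 3.52, whereas the tallest lines of the combined list stand at other places.

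Clusters were spread along the whole stretch. Its 105 bins of 100 kb (the last one shorter) included 11 bins without a covered base in replicate 1 and 5 such bins in replicate 2, and 5 bins were empty in both replicates. The combined list left 3 bins empty. On the same-length autosomal stretches between 40 and 52 of 105 bins were empty in both replicates. The part of X on the telomere side of the stretch had 9 of 100 bins empty in both. Few empty bins were thus found on both parts of X and were not particular to the stretch. The coverage of the median bin was 6.06% in replicate 1 and 7.40% in replicate 2. Coverage per bin followed the same course in the replicates, with a Pearson correlation of 0.968 and a Spearman correlation of 0.936 across the 105 bins, which share their libraries and are given as a description. Replicate 2 was the higher one in 84 bins and replicate 1 in 16.

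Among the 10 full 1 Mb bins, coverage was highest between 19 and 20 Mb, at 10.8% in replicate 1 and 14.4% in replicate 2 (12.6% ± 2.60, SD, n = 2). It was lowest between 10 and 11 Mb, at 4.34% and 5.51% (4.92% ± 0.822). The highest bin exceeded the lowest in both replicates by more than their spread. These bins were picked by the same values, so this difference is no test of variation along the stretch. The bins from 15 to 18 Mb formed a run of high coverage, at 9.96%, 10.0% and 9.48% in replicate 1 and 11.98%, 12.1% and 11.4% in replicate 2. The bins at 14 to 15 Mb and 18 to 19 Mb on either side were lower in both, at 5.55% and 5.42% in replicate 1 and 7.16% and 7.65% in replicate 2. High coverage was not particular to this run. The bin from 13 to 14 Mb had 9.18% in replicate 1, just below the run, and 12.4% in replicate 2, above it.

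Coverage did not climb evenly towards the proximal window. In the last 0.423 Mb before it, coverage was 4.23% in replicate 1 and 4.67% in replicate 2 (4.45% ± 0.311), below the mean of the stretch, although the bin before it was the highest. The last member ran from 20381443 to 20383033 with a score of 0.323 in replicate 1 and from 20381606 to 20383010 with a score of 0.432 in replicate 2. The first cluster beyond the edge began at 20477062 in replicate 1 (score 0.673) and at 20462241 in replicate 2 (score 0.896). At the telomere-side edge, the last cluster outside ended at 9997942 in replicate 1 (score 0.734) and at 9998073 in replicate 2 (score 1.09). The first member began there at 10058241 (score 0.893) and at 10058101 (score 0.958). Both edges therefore fell between clusters and cut none.

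**Figure D2:**
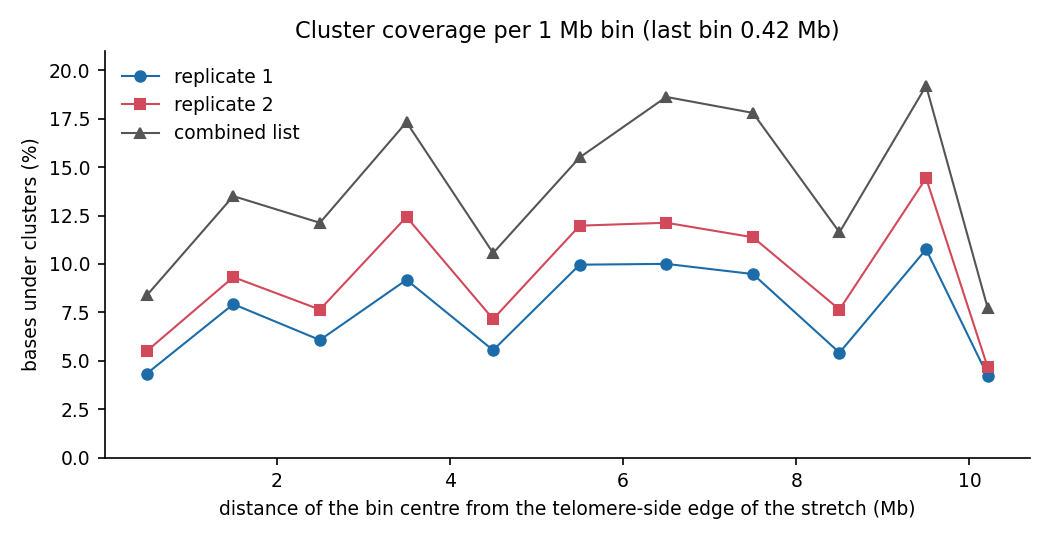
Percent of bases under clusters (vertical axis) in successive 1 Mb bins, by the distance of the bin centre from the telomere-side edge of the stretch (horizontal axis, Mb), for both replicates and the combined list; the last bin is 0.42 Mb long. The lists rise and fall together, with the highest bin at 10.8% and 14.4% in the replicates and the last bin at 4.23% and 4.67%.

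Neighbouring members lay a median of 14853 bp apart in replicate 1 and 14197 bp apart in replicate 2, and gaps of up to 5 kb made up 27.2% and 29.9% of all gaps. When members up to 10 kb apart were taken as one chain, 123 members of replicate 1 and 132 of replicate 2 stood alone. Chains of 3 or more held 35.0% and 38.6% of the members. The pooled autosomal stretches, with fewer clusters per Mb, had 27.0% and 24.7% of their clusters in such chains, and the first 10 Mb of X had 32.5% and 42.5%, below the stretch in replicate 1 and above it in replicate 2. This comparison depends on the density of clusters, and at a distance of 5 kb the shares were 23.4% and 23.3% on X and 23.8% and 16.5% on the autosomal stretches. The order of X and the autosomes thus turned in replicate 1.

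The longest chain of replicate 1 ran from 15803370 to 15878081 (74.7 kb, 13 clusters), and that of replicate 2 from 16349893 to 16426253 (76.4 kb, 9 clusters). Each of them was the second longest in the other replicate. The first was covered at 47.9% by replicate 1 and 59.4% by replicate 2, and the other at 63.9% and 84.8%. A chain from 17651406 to 17709705 in replicate 1 (58.3 kb, 10 clusters) had a counterpart from 17656045 to 17709873 in replicate 2 (53.8 kb, 9 clusters).

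Of the 10 widest clusters of the combined list, 4 lay in these 3 chains, those that began at 16353625, 15851642, 17659641 and 16391411. In the combined list the widest ran from 16353625 to 16387560 (33.9 kb, score 1.11). Replicate 1 covered 84.7% of it with 3 clusters and replicate 2 covered 97.7% with 2. The next, from 17830840 to 17858996 (28.2 kb, score 1.19), was covered at 86.9% and 94.1%. The third, from 15851642 to 15878127 (26.5 kb, score 0.776), was broken into 7 clusters in replicate 1, which covered 73.2% of it, and 4 in replicate 2, which covered 89.2%. The same enriched ground was thus cut into different numbers of clusters in the lists.

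The other 7 of the 10 widest measured 11.2 kb to 22.7 kb. They began at 19433617 (score 0.955), 17659641 (0.674), 19611787 (1.13), 14994059 (1.07), 17997042 (1.40), 19478447 (0.571) and 16391411 (1.29). Of the 10 widest, 9 were covered by over 50 percent in replicate 1 and 9 in replicate 2. The exceptions were the one at 19478447 in replicate 1, covered at 32.0%, and the one at 17659641 in replicate 2, covered at 48.8%. Together the 10 made up 12.7% of the covered bases of the combined list, and none scored above 1.40.

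The highest scores belonged to other clusters. In both replicates the highest was a narrow cluster, from 14173831 to 14175292 with a score of 3.98 in replicate 1 and from 14174068 to 14175400 with a score of 3.52 in replicate 2. A second narrow cluster lay beside it, from 14177396 to 14179262 (score 3.04) in replicate 1 and from 14176370 to 14177933 (score 2.24) in replicate 2. These 2 overlapped only in part: replicate 2 covered 28.8% of the former, and replicate 1 covered 34.4% of the latter. The combined list had a single 9051 bp cluster over this place, with a score of 1.16. Some other high members were found in both replicates at like scores: the cluster that began at 12825887 in replicate 1 scored 2.46, and its counterpart from 12825948 in replicate 2 scored 2.57. The cluster from 10991883 to 10996006 of replicate 2 scored 2.37, and the one it overlapped in replicate 1 scored 2.27. Others differed more: the cluster that began at 12688813 in replicate 1 scored 2.35, and its counterpart in replicate 2 scored 1.81. The second highest cluster of replicate 2, from 19604176 to 19605798 (score 2.59), overlapped none in replicate 1. The same held for the replicate 2 cluster from 12276858 to 12278229 (score 2.10).

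None of the 10 highest-scoring members of the combined list overlapped a cluster of either replicate. They were 1001 bp to 1765 bp wide and scored 2.66 to 3.83. The highest ran from 11080419 to 11081898. Members at 15310347, 16389341 and 17091383 were each exactly 1001 bp wide, the narrowest width in the combined list, and shared a score of 3.47 to within 1e-06. The narrowest clusters of the replicate lists over the whole genome measured 1301 bp and 1302 bp, so clusters of that size are not found in them. The distance of the 10 to the nearest cluster ranged from 0.250 kb to 46.6 kb in replicate 1 and from 0.350 kb to 46.9 kb in replicate 2.

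The gaps of the combined list hold few replicate clusters by construction, since in the stretch 99.4% of the replicate 1 cluster bases and 98.8% for replicate 2 lie under its clusters. Its longest gap, from 14273433 to 14476403 (203.0 kb), held no cluster of replicate 1 and only the edge of 1 cluster of replicate 2. The gap from 18543072 to 18668310 (125.2 kb) held no cluster in any list. The gap from 10497195 to 10643407 (146.2 kb) held none of replicate 1, and replicate 2 covered 1.07% of it. The longest gap of replicate 1 measured 297.3 kb, from 14179263 to 14476573. It begins right after the second high-scoring cluster at 14.2 Mb, and replicate 2 had 3 clusters in it that covered 1.26%. The next gaps of replicate 1 were less empty in the other lists. The one from 10261996 to 10495155 (233.2 kb) held 4 clusters of replicate 2 and 7 of the combined list, and the one from 19866313 to 20070563 (204.3 kb) held 1 and 6.

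The replicates were compared by overlap of at least 1 bp. Of the 303 members of replicate 1, 271 (89.4%, Wilson 95% interval 85.5% to 92.4%) overlapped a cluster of replicate 2. Over all sequences the share was 90.5%, so the share in the stretch was near that background. Of the 352 members of replicate 2, 254 (72.2%, 67.3% to 76.6%) overlapped replicate 1, against 78.5% over all sequences. The intervals cover counting error only. The Jaccard index, the bases in both lists over the bases in either, was 0.630. Bases under both replicates came to 703.7 kb, bases under replicate 1 alone to 101.3 kb and bases under replicate 2 alone to 312.2 kb.

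Clusters found in 1 replicate only were mostly weak ones. The 32 members of replicate 1 without an overlap had a median score of 0.626 and a median width of 1522.5 bp, against 0.765 and 2109 bp for the 271 with one. In replicate 2 the 98 without an overlap had 0.630 and 1644.5 bp, against 0.834 and 2449 bp. In replicate 1, members with scores from 0.4 to 0.6 overlapped in 38 of 49 cases and those from 1 to 1.5 in 47 of 47. In replicate 2 the counts were 43 of 78 and 60 of 61, but 2 of its 9 members with a score of 2 or more had no overlap. All 32 unmatched members of replicate 1 and 95 of the 98 of replicate 2 overlapped a cluster of the combined list, which was built on the same libraries.

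Cluster borders fell close together. A total of 223 pairs matched one to one, with a median distance of 159 bp between starts and 149 bp between ends. Both borders lay within 200 bp in 92 pairs and within 500 bp in 160 pairs. Replicate 2 had the wider cluster in 152 of the 223 pairs and the higher score in 135. Merging went mostly in 1 direction: 20 clusters of replicate 2 overlapped 2 or more clusters of replicate 1, up to 5, and 6 clusters of replicate 1 overlapped 2 of replicate 2.

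Scores of overlapping clusters followed each other. Over the 271 pairs Spearman's correlation came to 0.786 and Pearson's to 0.897, as a description over clusters of the same 2 libraries. A replicate 2 cluster that overlapped several replicate 1 clusters could enter more than 1 pair. In the 223 one-to-one pairs Spearman's correlation was 0.827 and the median absolute difference of the scores was 0.0906.

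**Figure D3:**
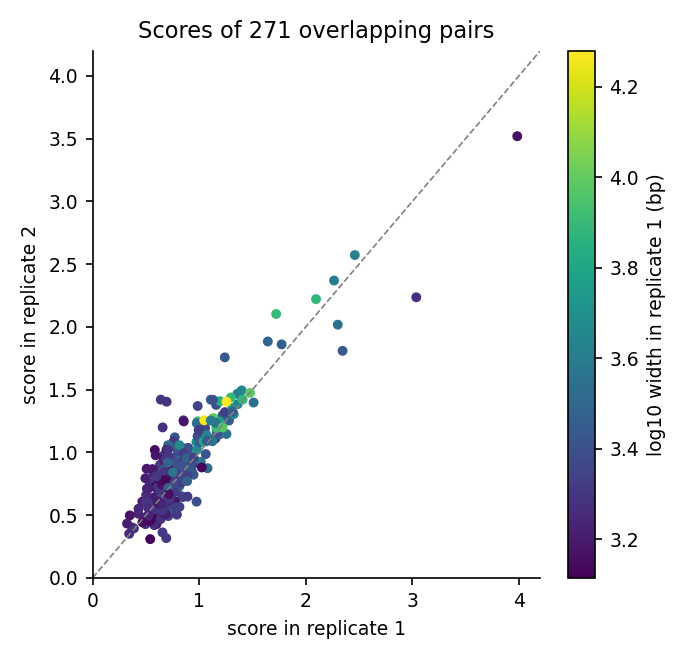
Deposited score in replicate 1 (horizontal axis) against the score of the overlapping cluster in replicate 2 (vertical axis) for 271 pairs, coloured by the log10 width in replicate 1, with a dashed line of equal scores. Some replicate 2 clusters enter more than 1 pair. Most points lie below 1.5 along the line, and the highest point is the narrow cluster with 3.98 and 3.52.

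The combined list held more clusters, both narrower and wider than those of the replicates. Of its 523 members, 237 (45.3%) overlapped both replicates, 29 replicate 1 only, 87 replicate 2 only and 170 neither (32.5%, Wilson 95% interval 28.6% to 36.6%). Over all sequences 31.2% overlapped neither, close to the share in the stretch. The 237 were a median of 3009 bp wide, scored a median of 0.696 and made up 68.5% of the covered bases. The 170 were a median of 1257 bp wide with 0.461 as their median score, and 89 of them were narrower than any cluster of the replicate lists. Among combined members at least as wide as the narrowest replicate cluster, 18.9% overlapped neither.

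Scores in the combined list ran lower than in the replicates at the same places. Of the 237 members over both replicates, 157 scored below both of the clusters they overlapped and 0 scored above both. Their medians were 0.696 in the combined list, 0.777 in replicate 1 and 0.834 in replicate 2. A given score therefore does not stand for the same thing in the combined and replicate lists.

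The stretch was then set beside the parts of the genome most like it. The autosomal stretches are the 10.4 Mb next to the proximal 2 Mb of 2L, 2R, 3L and 3R. Coverage of the X stretch exceeded their pooled coverage of 2.68% in replicate 1 and 3.04% in replicate 2, a ratio of 2.88 and 3.20 (3.04 ± 0.231, SD, n = 2). It also exceeded every one of the 4 stretches in each replicate. 2R came nearest, with 4.16% and 4.66%, ahead of 2L with 2.65% and 3.02%, 3L with 2.09% and 2.37%, and 3R with 1.83% and 2.12%. The lowest X value lay above the highest autosomal value, and the gap was larger than the spread between replicates. An exact two-sided sign-flip permutation test over the 2 replicates gave p = 0.5, the smallest p that 2 replicates allow, so the design cannot pass 0.05. When clusters below the median score of their whole list were dropped, the ratio turned to 0.651. This limit was 1.75 for replicate 1 and 1.43 for replicate 2 and kept 8 and 17 members of the stretch.

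The difference lay in the number of clusters rather than in their width. The X stretch had 29.1 and 33.8 clusters per Mb against 9.59 and 10.2 on the pooled autosomal stretches, a ratio of 3.17 ± 0.200. The median widths were 2055 bp and 2151.5 bp on X and 1996.5 bp and 2011 bp on the autosomes, a ratio of 1.05 ± 0.0287. The exact sign-flip permutation p was 0.5 for both. On 2R alone the median width was 2137 bp in replicate 1, above that of X, and 2125 bp in replicate 2, below it.

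**Figure D4:**
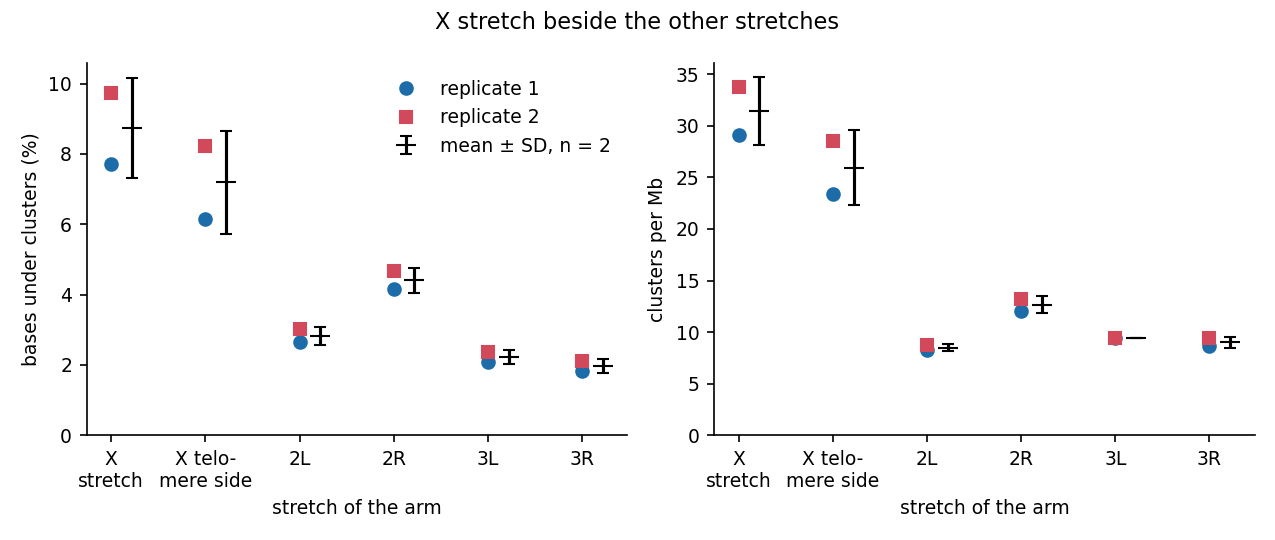
Percent of bases under clusters (left) and clusters per Mb (right), both axes from 0, for the X stretch, the first 10 Mb of X and the stretches of the same length on 2L, 2R, 3L and 3R. Circles and squares are the replicates and the black bars are their mean ± SD (n = 2); X lies at 7.72% and 9.75% and the highest autosomal stretch, 2R, at 4.16% and 4.66%.

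Clusters with scores from 0.8 to 1.5 made up a larger share on the X stretch than on the autosomal stretches in both replicates. Scores from 0.8 to 1.5 were held by 112 of 303 members of replicate 1 (37.0%) and 133 of 352 of replicate 2 (37.8%). Over all sequences, which include the high-scoring heterochromatin, the shares were 13.7% and 15.3%. On the pooled autosomal stretches they were 16.0% and 15.8%, so the difference was 20.96 percentage points in replicate 1 and 22.0 in replicate 2 (21.5 ± 0.746, exact two-sided sign-flip permutation p = 0.5, the smallest possible). The range was chosen with the scores of X and autosomes already known from these lists, and the difference is no independent support for it. Each autosomal stretch had a lower share than X, from 7.78% on 3R to 19.0% on 2R in replicate 1 and from 9.18% on 3R to 22.4% on 3L in replicate 2. In the combined list, where scores run lower, the shares were 16.1% and 8.16%.

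By class, the density ratio of X to the autosomal stretches was 0.941 in replicate 1 and 1.18 in replicate 2 for scores under 0.4. It was 1.78 and 1.96 from 0.4 to 0.6, 3.26 and 3.87 from 0.6 to 0.8, 7.03 and 7.20 from 0.8 to 1, and 6.96 and 9.04 from 1 to 1.5. From 1.5 to 2 it was 0.727 and 1.00, on 4 X clusters in each replicate. At 2 or more it was 1.47 and 1.33, on 7 and 9 X clusters. The ratio was above 1.5 in both replicates in each class from 0.4 to 1.5 and in no other class. Members with scores from 1 to 1.5 were wider, with a median of 3644 bp in replicate 1 and 3648 bp in replicate 2, than those from 0.4 to 0.6, with 1643 bp and 1735.5 bp.

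**Figure D5:**
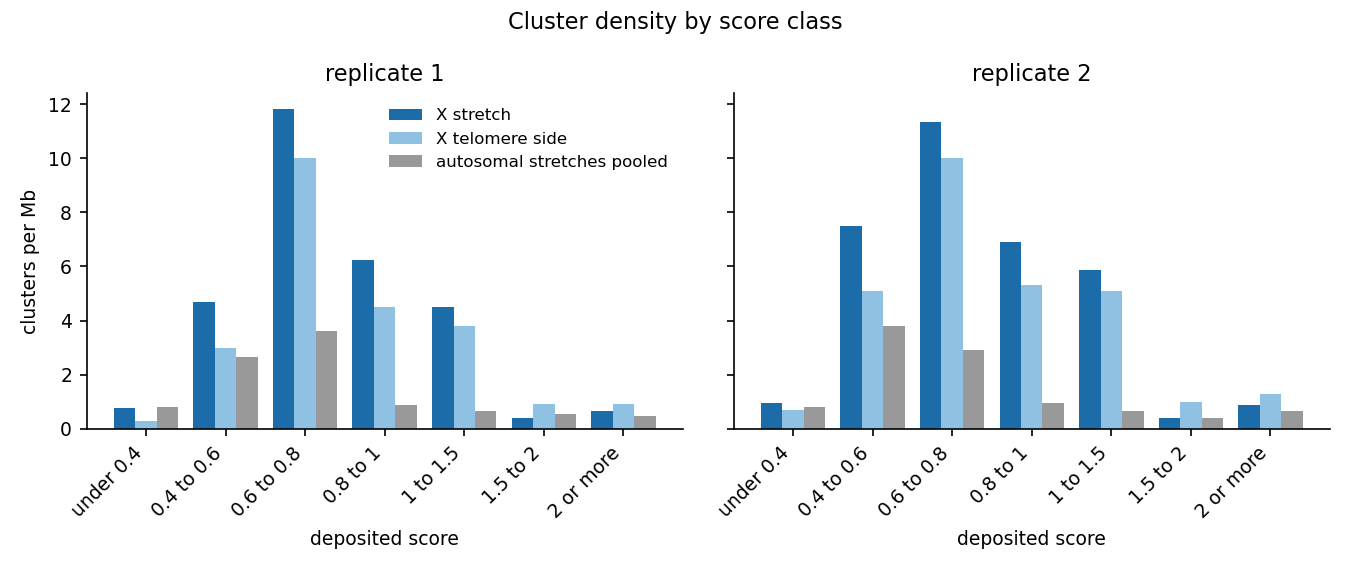
Clusters per Mb (vertical axis, from 0) by class of deposited score (horizontal axis) in replicate 1 and replicate 2, for the X stretch, the first 10 Mb of X and the pooled autosomal stretches. Between 1 and 1.5 the X stretch had 4.51 and 5.85 clusters per Mb against 0.648 on the autosomal stretches in both replicates, whereas from 1.5 upwards all 3 were at or below 1.30.

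The telomere-side 10 Mb of X was much more like the stretch than the autosomes were. Clusters covered 6.16% of it in replicate 1 and 8.23% in replicate 2, so the stretch was 1.25 and 1.18 times as high (1.22 ± 0.0489, exact two-sided sign-flip permutation p = 0.5). Within each replicate the stretch was higher, by 1.56 and 1.51 percentage points. The replicates themselves differed by more than that, since replicate 2 on the telomere side exceeded replicate 1 on the stretch. With clusters below the list's median score dropped, the ratio turned to 0.662, and clusters with scores from 1.5 to 2 were sparser on the stretch, at 0.384 per Mb in both replicates against 0.900 and 1.00 on the telomere side. The shares of clusters with scores from 0.8 to 1.5 were 35.5% and 36.5% there, within 1.49 and 1.29 percentage points of the stretch. The median scores of 0.753 and 0.764 also lay near those of the stretch, 0.749 and 0.746.

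The median and the longest gap were shorter on the stretch than on each autosomal stretch. The median gap was 14853 bp and 14197 bp, against 21146 bp and 16749 bp on 2R, the nearest of the 4, and 52611 bp and 44584 bp on 3L. In the first 10 Mb of X it was 18673 bp and 13931.5 bp, longer than on the stretch in replicate 1 and shorter in replicate 2. Short gaps were more frequent on 2R, where those of up to 5 kb made up 37.6% and 33.6%, against 27.2% and 29.9% on the stretch. On 2L they made up 28.2% and 21.1%. The longest gap of the stretch, 297.3 kb in replicate 1 and 203.0 kb in replicate 2, was shorter than the longest gap of each autosomal stretch, which ranged from 625.5 kb to 955.6 kb in replicate 1 and from 470.4 kb to 683.6 kb in replicate 2. The widest clusters went the other way. The widest of the stretch measured 19043 bp in replicate 1 and 23064 bp in replicate 2, below 2L with 30638 bp and 56607 bp and 2R with 34000 bp and 47366 bp, and above 3L with 8881 bp and 9420 bp and 3R with 8624 bp and 7865 bp. The X stretch was thus covered by many clusters of modest width, and 2L and 2R had wider single clusters among fewer. This was not particular to the stretch. The first 10 Mb of X had 23.4 and 28.5 clusters per Mb, with median widths of 2080.5 bp and 2249 bp.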

How the data were processed

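The authors deposited lists of enriched clusters, 1 for each ChIP library and 1 for the replicate set, with a score per cluster. Per the file headers, the build is FlyBase release 5, and the scale of the score is not stated there. Bowtie 0.12.7 appears in the submitters' processing notes with no role. Not given in the sources used here are the caller, its threshold, the treatment of repeat reads and how replicates were combined. Read totals are not given, so no interval from depth was computed.

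From the lists, coverage was counted by base and cluster counts, widths and scores by midpoint. Overlap needed 1 bp. Values were averaged over the 2 replicates, grouped by sample title, and compared by exact sign-flip permutation tests. The code was tested on simulated lists. The members, the comparison stretches, the score range and the alternatives were chosen with earlier results of these data known. The text names the 10 widest and 10 highest-scoring clusters and the 3 longest gaps of the combined list, the 1 Mb bins of highest and lowest coverage and the clusters at the edges. The leading clusters, chains and gaps of the replicate lists and the chain distances were added after values were seen. The combined list also holds 3 depletion regions, none in the stretch, which were not used. No gene or sequence is given, because the only gene table at hand has release 6 positions. Python 3.11.15, numpy 2.4.6, pandas 2.3.3, scipy 1.17.1 and matplotlib 3.10.9 were used.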

Additional observations from a re-analysis of the deposited data

How the results depend on the processing

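Of 75 alternatives over 13 results, 14 leave out 1 of 2 replicates. With n = 2 these stay within 1 SD by arithmetic, so they are no test of stability. Of the other 61, 19 stayed within 1 SD (or the binomial interval, or 0.01 for the Jaccard index and score correlation), 40 moved further and 2 turned. Dropping clusters below each list's median score left 8 and 17 members in the replicates and 211 in the combined list. With counts so unequal, most of these combined members could not overlap a replicate member, and their share in neither replicate was high by construction. It turned the coverage ratios to 0.651 (autosomal stretches) and 0.662 (telomere side). It gave 0.510% coverage, 1.20 clusters per Mb, a median width of 3342 bp, a median gap of 610122 bp, a score-range difference of 10.6 points, overlaps of 100% and 47.1%, a Jaccard index of 0.318, a score correlation of 0.571 on 8 pairs and 92.4% of combined members in neither replicate. Scores of 0.8 or more gave 5.21% coverage, 12.9 clusters per Mb, an autosomal ratio of 3.83, a median width of 2949 bp, a median gap of 37308 bp, a Jaccard index of 0.608, a score correlation of 0.829 and 17.1% in neither. The combined list gave 14.2%, 50.2 clusters per Mb, ratios of 2.73 and 1.15, 2012 bp, 7704 bp and 7.91 points. Leaving out the 1 Mb nearest the centromere, on X and on each autosomal stretch alike, gave an autosomal ratio of 3.95, a gap of 16334 bp and 19.4 points. Coverage of the X stretch was then 8.435%, against 8.74% for the whole, so the higher ratio came with lower autosomal coverage. Leaving out 2R gave a ratio of 3.71 and leaving out 3R one of 2.76; without 3L and 3R the points were 22.9 and 19.3. Joining clusters within 1 kb gave a median width of 2179 bp and a gap of 18852 bp. Overlap of 50 percent both ways gave 72.9%, 62.8% and a score correlation of 0.859. The width limit gave 18.9% in neither. Chain distances of 5 kb and 20 kb, added after seeing the data, moved the X minus autosomal share in chains from 11.0 to 3.25 and 21.3 points. The causes were not tested, apart from the score limits, which lower coverage and density by construction. No paired analysis was possible because no input list was used, so ChIP had no second group to pair with; stretches were compared within each replicate.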
